A study of Mus musculus with 10 samples.

Results

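The 81 genes described here carry the symbols of cytosolic ribosomal proteins, a few paralogues of them included, as measured in sorted mast cells of the mouse lower airway. They were chosen by symbol, as every Rpl or Rps gene of the plain naming pattern together with Rplp0, Rplp1, Rplp2 and Rpsa, with at least 50 counts summed over the 10 libraries. Of 22815 symbols in the count table, 84 matched the pattern, and 81 reached the minimum, 48 of the large subunit and 33 of the small subunit. The 3 left out were testis or muscle paralogues, with 5 counts for Rpl10l, 2 for Rpl3l and 1 for Rpl39l, and the lowest gene kept was Rps4l with 110. All 81 passed edgeR's filter on low counts.

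The cells came from wild-type C57BL/6 mice of 5 to 7 weeks, and were sorted as a B7hi and a B7low population after intranasal challenge 2 times a week for 3 weeks. The groups were B7hi with house dust mite extract (HDM, 3 µg in 20 µL of saline per challenge; n = 3), B7low with HDM (n = 3), B7hi with saline alone (n = 2) and B7low with saline alone (n = 2). As published for such cells, B7 stands for integrin β7. The series title calls the cells inducible and constitutive mast cells, names used for the β7-high and the β7-low population. HDM is an allergen preparation that inflames the airway. Whether replicates were separate animals is not in the labels, and the spread behind each p-value may thus hold technical spread alone.

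A ribosome holds a large and a small subunit, each built on ribosomal RNA with 1 copy of most ribosomal proteins. The protein transcripts are short and abundant, and begin with a run of pyrimidines, the terminal oligopyrimidine (TOP) start, through which growth signals acting by mTORC1 and the La-related protein LARP1 set their translation and stability. Ribosomal proteins also leave many processed pseudogenes in mammalian genomes, which resemble their transcripts closely. In mast cells, as in other secretory cells, ribosomes feed the synthesis of proteases and other granule proteins.

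Most windows around the annotated starts that could be read held a pyrimidine run. The windows below hold 25 bases before and 25 bases from the annotated start, 5′ to 3′ on the gene's strand, from RefSeq promoters on GRCm38.p6, with the longest run of at least 7 pyrimidines in capitals. The first 8 are the genes with a RefSeq promoter that had the smallest p by the larger of their p-values in both population contrasts, and all 8 were called higher in B7hi in at least 1 of them. Rpl13a, Rpl39 and Rpl28 carry the run within the window, and the other 5 do not. In Rpl39 it begins 21 bases before the annotated start and is 9 bases long, so it lies wholly before that start. Whether a transcript begins with such a run was not tested, and a window without one does not show that a TOP start is absent. Rps27l and Rpl7l1, paralogues whose level passed no test, are shown for contrast.
Rps19, chr7:24884567-24884616, plus strand: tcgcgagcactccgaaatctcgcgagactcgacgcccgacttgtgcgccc
Rps7, chr12:28635929-28635978, minus strand: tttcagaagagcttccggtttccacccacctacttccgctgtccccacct
Rpl13a, chr7:45128721-45128770, minus strand: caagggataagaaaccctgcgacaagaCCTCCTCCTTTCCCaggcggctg
Rps16, chr7:28350664-28350713, plus strand: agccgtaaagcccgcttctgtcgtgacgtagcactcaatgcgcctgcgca
Rps13, chr7:116334166-116334215, minus strand: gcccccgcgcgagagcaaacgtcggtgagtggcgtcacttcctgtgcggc
Rpsa, chr9:120127741-120127790, plus strand: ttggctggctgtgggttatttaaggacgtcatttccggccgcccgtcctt
Rpl39, chrX:37085198-37085247, minus strand: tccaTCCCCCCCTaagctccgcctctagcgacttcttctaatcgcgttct
Rpl28, chr7:4792940-4792989, plus strand: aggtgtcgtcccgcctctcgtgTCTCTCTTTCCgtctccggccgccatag
Rps27l, chr9:66946061-66946110, plus strand: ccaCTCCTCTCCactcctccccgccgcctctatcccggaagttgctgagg
Rpl7l1, chr17:46782632-46782681, minus strand: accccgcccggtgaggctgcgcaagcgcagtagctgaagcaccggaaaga

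RefSeq gave a promoter for 60 of the 81 genes. A run of at least 7 pyrimidines lay in the 50-base window of 56.7% of them, against 29.2% of the windows of all 27025 genes in the table. It lay in 16 of 31 windows of genes called higher in B7hi in at least 1 contrast below and in 18 of 29 windows of genes called in neither. Over the full promoter, from 250 bases before to 50 bases after the start and on both strands, CCGGAAG, a match to the core bound by ETS factors, was found in 40.0% of the ribosomal protein genes and in 9.12% of all genes. AAGATGGC, a match to the YY1 motif, was found in 8.33% against 2.88%, TGACGTCA, the cyclic AMP response element, in 8.33% against 1.88%, and TATAAA in 6 of the 60 promoters against 14.2%. The E-box CACGTG, which MYC can bind, was found in 8.33% against 7.24%. These letters describe the sequence and do not show that a factor binds there.

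The ribosomal protein genes took a larger share of the transcripts in B7hi than in B7low mast cells, under either challenge. They held 5.22%, 5.00% and 5.32% of the counts in B7hi HDM libraries, against 2.45%, 3.65% and 2.47% in B7low HDM libraries. In saline libraries they held 4.72% and 5.01% in B7hi, against 1.67% and 2.42% in B7low. Each of the 5 B7hi libraries lay above each of the 5 B7low libraries, and B7low HDM 2 lay nearest to the B7hi range. The mean share was 5.18% ± 0.167 in B7hi HDM and 2.86% ± 0.685 in B7low HDM (SD, n = 3 each), a ratio of 1.81. With saline it was 4.86% ± 0.202 in B7hi and 2.04% ± 0.527 in B7low (SD, n = 2 each), a ratio of 2.38. The exact binomial 95% interval of the lowest share, B7low saline 1, was 1.64% to 1.70%, and that of the highest, B7hi HDM 3, was 5.29% to 5.36%. Such intervals hold counting error alone, with the reads of 1 library taken as independent. PCR copies were not collapsed by molecular identifiers, so the intervals may be too narrow even for that error. In bulk RNA, fewer cells of a type and less RNA per cell cannot be told apart.

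**Figure D1:**
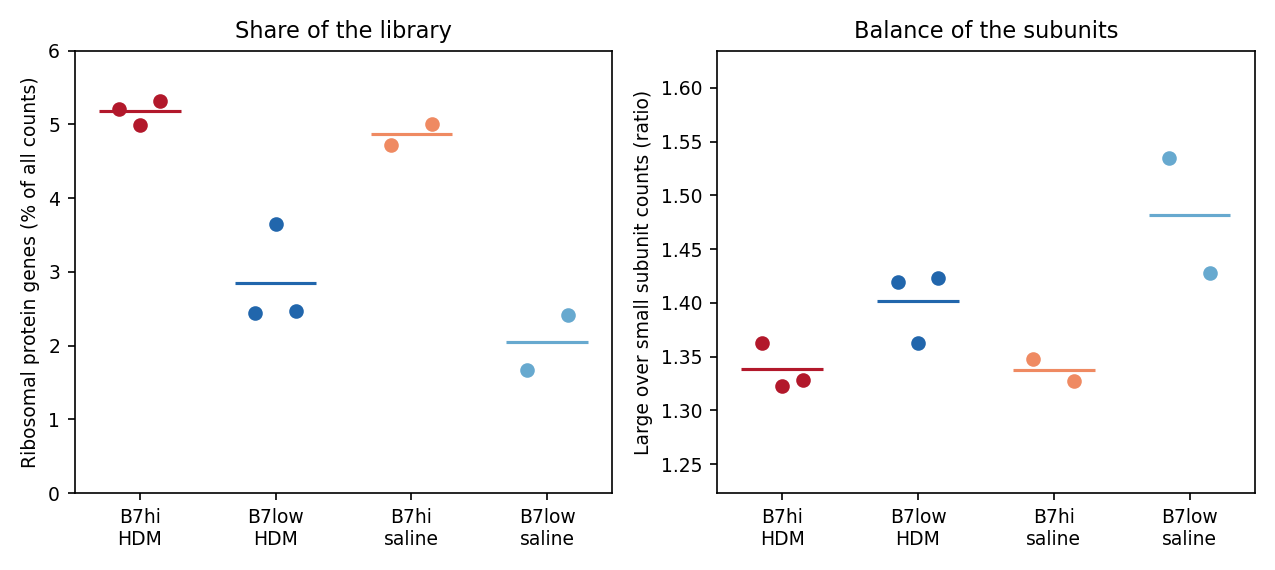
Left, the percent of each library's counts held by the 81 ribosomal protein genes, and right, the ratio of large to small subunit counts, with 1 point per library and the group mean as a line. B7hi libraries hold 4.72% to 5.32% and B7low libraries 1.67% to 3.65%, and the highest ratio, 1.53, is that of B7low saline 1.

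Total counts ran from 525983 to 1725818 per library. Rn45s, the ribosomal RNA precursor, held 19.7% to 28.9% of them, and without it the mean shares were 6.83% in B7hi HDM, 3.73% in B7low HDM, 6.13% in B7hi saline and 2.85% in B7low saline. With saline, depth and Rn45s split by population. B7hi had 1222409 and 1725818 counts with 19.7% and 21.6% Rn45s, and B7low had 652736 and 639906 with 27.2% and 28.9%. In the saline contrast, depth and Rn45s can thus not be told apart from population. Other abundant transcripts moved with the populations. The summed level of 9 mast cell markers, among them Kit, Cpa3 and Fcer1a, was 19310 to 31924 CPM (counts scaled to 1e+06 per library) in B7hi HDM, 49653 to 69056 in B7low HDM, 14046 to 16612 in B7hi saline and 55835 to 95350 in B7low saline. All 9 mast cell markers were detected. So were the 4 B cell markers, with a sum of 3.73 to 17.4 CPM in B7hi HDM, 75.9 to 536 in B7low HDM, 9.76 to 60.7 in B7hi saline and 17.4 to 21.3 in B7low saline. The 6 epithelial markers summed to 73.4 to 137 CPM in B7hi HDM, 57.4 to 128 in B7low HDM, 136 to 186 in B7hi saline and 10.4 to 26.3 in B7low saline, so that the saline groups did not overlap. Sums of endothelial and T cell markers did not exceed 366 and 91.8 CPM in a library, with overlap of B7hi and B7low under each challenge, and the eosinophil genes Prg2 and Epx were at 0 counts in all. Kcnq1ot1, a nuclear noncoding RNA, was highest in B7hi HDM 2 (12133 CPM) and B7low saline 2 (6956 CPM). The part of these levels in the results below was not tested, beyond the scalings and left-out libraries given.

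With HDM, 28 of the 81 genes were higher in B7hi than in B7low and 0 were lower (edgeR's quasi-likelihood test, Benjamini-Hochberg adjusted p under 0.05 over 10533 genes), where 0.693% of all tested genes were called higher. The median log2 fold change of the 81 was 0.90, against 0.03 over all tested genes, and 79 of 81 estimates were positive. With saline, 35 were higher and 0 lower, where 2.91% of all tested genes were called higher. The median there was 0.99, against 0.03 over all tested genes, with 78 of 81 positive. The few negative estimates, of Rpl26 and Rps4l in both contrasts and Rpl7l1 with saline, were not called.

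The calls depended on which libraries were kept, while the medians moved less. Shares of all tested genes called are not given for the fits with libraries left out. Whether calls fell for these genes or for all genes alike can thus not be read from the counts. With HDM, the count of genes called was 9, 1 and 10 without B7hi HDM 1, 2 or 3, 2, 43 and 2 without B7low HDM 1, 2 or 3, and 16 without B7hi saline 1. With saline, it was 3 without B7hi saline 1, of which 1, Rpl26, was lower, 3 without B7hi saline 2, 2 without B7low saline 1, 16 and 19 without B7hi HDM 2 or 3, and 20 without B7low HDM 3. Over 21 alternatives, a single gene's call was lost under a median of 6, ranging over 0 to 13 for the 28 calls with HDM and 0 to 16 for the 35 calls with saline. Over the 10 libraries left out in turn, the median log2 fold change stayed within 0.79 to 1.10 with HDM and within 0.84 to 1.22 with saline. DESeq2 called 56 genes higher with HDM and 38 with saline, where it called 1.55% and 3.38% of all tested genes higher, and limma-voom called 48 and 36, where it called 1.13% and 1.35% higher.

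Part of the calls fell on the same genes under both challenges. The contrasts share no library, but both came from 1 fit over all 10 libraries with a shared estimate of the spread. Calls under both challenges are therefore not independent. In all, 19 genes were called in both, which is 67.9% of the 28 and 54.3% of the 35, and 44 were called in at least 1. Over all tested genes, 0.693% were called higher with HDM and 2.91% with saline. The share of all tested genes called in both is not given here, so the overlap has no background to be read against. The log2 fold changes of the 81 genes had a Spearman rho of 0.54 and a Pearson r of 0.71 between the challenges, across genes of the same libraries, which are not independent replicates. CPM ranges did not overlap, with B7hi above B7low, for 73 genes with HDM, where 9.76% of all tested genes did so, and for 76 with saline, where 28.5% did so. All 5 B7hi libraries lay above all 5 B7low libraries for 63 genes, 39 of the large and 24 of the small subunit, where 4.46% of all tested genes did so.

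**Figure D2:**
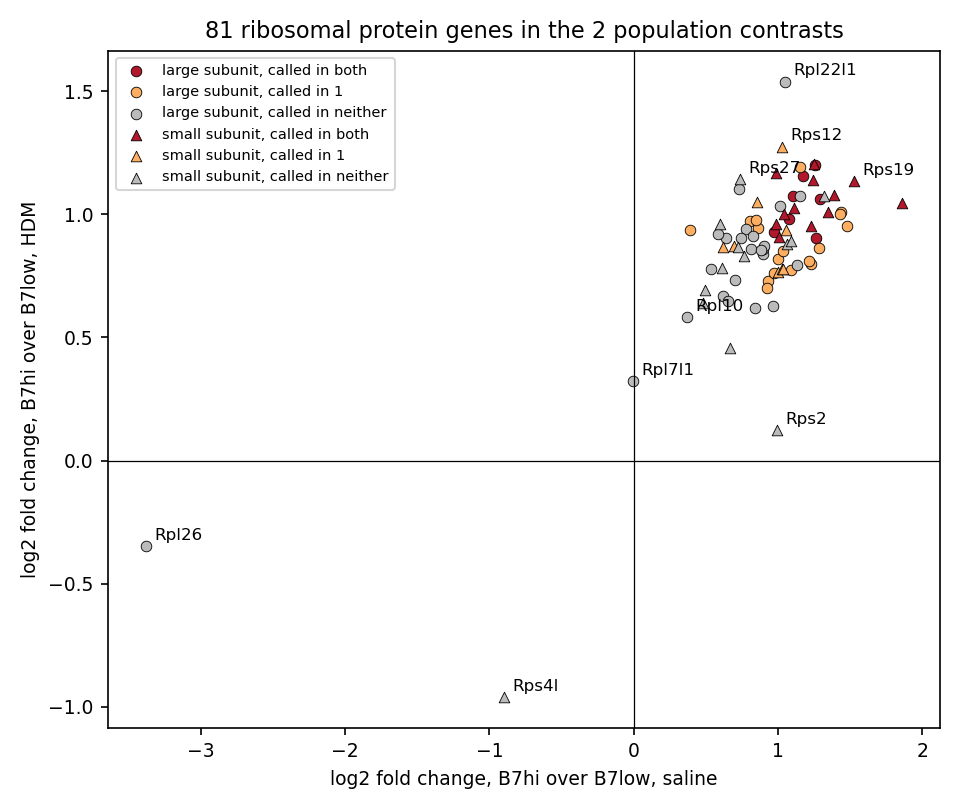
Each point is 1 of the 81 genes, with the log2 fold change of B7hi over B7low with saline on the x axis and with HDM on the y axis, circles for the large and triangles for the small subunit, coloured by the number of contrasts called by edgeR. Most points lie between 0.4 and 1.5 on both axes, and Rpl26, Rps4l, Rpl7l1 and Rps2 lie apart.

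Rpl13a (chr7:45125558-45128761, minus strand, GENCODE M21 on GRCm38) encodes a large subunit protein also known for an extraribosomal role in translational silencing. It had 485 and 502 CPM in B7hi cells with saline, against 178 and 232 CPM in B7low cells. With HDM it had 553, 638 and 567 CPM in B7hi cells, against 294, 396 and 249 CPM in B7low cells. Every B7hi library was above every B7low library, and the log2 fold change was 1.26 ± 0.28 with saline (approximate SE, edgeR adjusted p = 0.013) and 0.90 ± 0.23 with HDM (edgeR adjusted p = 0.041). The call was lost under 4 of 21 alternatives with saline and under 11 with HDM.

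Rps19, whose human counterpart is often mutated in Diamond-Blackfan anaemia, a failure of red cell production, had 433, 429 and 406 CPM in B7hi HDM, against 186, 266 and 125 CPM in B7low HDM. With saline it had 352 and 333 CPM in B7hi, against 107 and 130 CPM in B7low. All B7hi libraries were above all B7low libraries, and the log2 fold change was 1.13 ± 0.26 with HDM (edgeR adjusted p = 0.022) and 1.53 ± 0.32 with saline (edgeR adjusted p = 0.009). Rps24, another small subunit gene linked to that anaemia, had 802, 846 and 679 CPM in B7hi HDM, against 291, 408 and 335 CPM in B7low HDM. These libraries did not overlap, with a log2 fold change of 1.17 ± 0.22 (edgeR adjusted p = 0.0072). Of 9 large and 9 small subunit genes linked to the anaemia in humans, 1 and 5 were called higher with HDM, and 2 and 4 with saline, with none lower, where 28 and 35 of all 81 were called. Rps12 was higher in B7hi with HDM, at 641, 705 and 622 CPM against 232, 383 and 196 CPM in B7low (log2 fold change 1.28 ± 0.26, edgeR adjusted p = 0.011). Among the other small subunit genes, Rps7, Rps13 and Rps16 were called under both challenges, with log2 fold changes of 0.95 to 1.24. Rps3, which lines the mRNA entry channel, was called under both as well, at 0.91 with HDM and 1.01 with saline, calls lost under 8 and 10 of 21 alternatives.

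Among large subunit genes, Rpl23a at the rim of the peptide exit tunnel had the smallest p with HDM. It had 894, 824 and 768 CPM in B7hi HDM, against 423, 414 and 343 CPM in B7low HDM, and 823 and 759 CPM in B7hi cells with saline, against 341 and 395 CPM in B7low cells. The groups did not overlap and the log2 fold change was 1.08 ± 0.21 with HDM (edgeR adjusted p = 0.0084) and 1.10 ± 0.26 with saline (edgeR adjusted p = 0.016). The call with HDM held under all 21 alternatives, with an adjusted p of at most 0.046, and the call with saline was lost under 5. Of 8 proteins placed at or near the exit tunnel, 4 were called with HDM and 5 with saline, where 28 and 35 of all 81 were called. Rpl17 was called under both, at log2 fold changes of 1.06 and 1.29, as was Rpl39, a very short tunnel protein, at 0.98 and 1.08. Rpl32 and Rpl12 were likewise called under both, at 1.15 and 1.20 with HDM and 1.17 and 1.26 with saline. Rpl27 rose with saline (1.23 ± 0.27, edgeR adjusted p = 0.01) and stood at 0.80 with HDM (edgeR adjusted p = 0.051). Rpl5 and Rpl11, which carry the 5S RNA and bind MDM2, passed in neither contrast, with log2 fold changes of 0.86 and 0.84 with HDM and 0.81 and 0.90 with saline. All B7hi libraries nevertheless lay above all B7low libraries for both.

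The 3 proteins of the stalk, which recruits translation factors, and the laminin receptor protein Rpsa did not give the same calls. Rplp0, the stalk base, had 1388 and 1586 CPM in B7hi cells with saline, against 330 and 773 CPM in B7low cells, and was called with saline (1.43 ± 0.36, edgeR adjusted p = 0.027) and not with HDM (1.00 ± 0.29, edgeR adjusted p = 0.084), where 7 of 21 alternatives called it. The difference between the challenges did not pass for Rplp0 (interaction -0.43 ± 0.46, edgeR adjusted p = 0.85). Rplp1 had 1102, 1133 and 842 CPM in B7hi HDM, against 533, 607 and 469 CPM in B7low HDM, and was called with HDM (0.93 ± 0.22, edgeR adjusted p = 0.03). With saline Rplp1 had 920 and 731 CPM in B7hi, against 633 and 629 CPM in B7low (0.39 ± 0.27, edgeR adjusted p = 0.44). Nor did that difference pass for Rplp1 (interaction 0.55 ± 0.35, edgeR adjusted p = 0.71). Rplp2 passed in neither contrast, at 0.79 and 1.13, and 1 of 21 alternatives called it with saline. Rpsa, a small subunit protein, was called in both, at 1.08 with HDM and 1.39 with saline, calls lost under 12 and 4 of 21 alternatives.

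**Figure D3:**
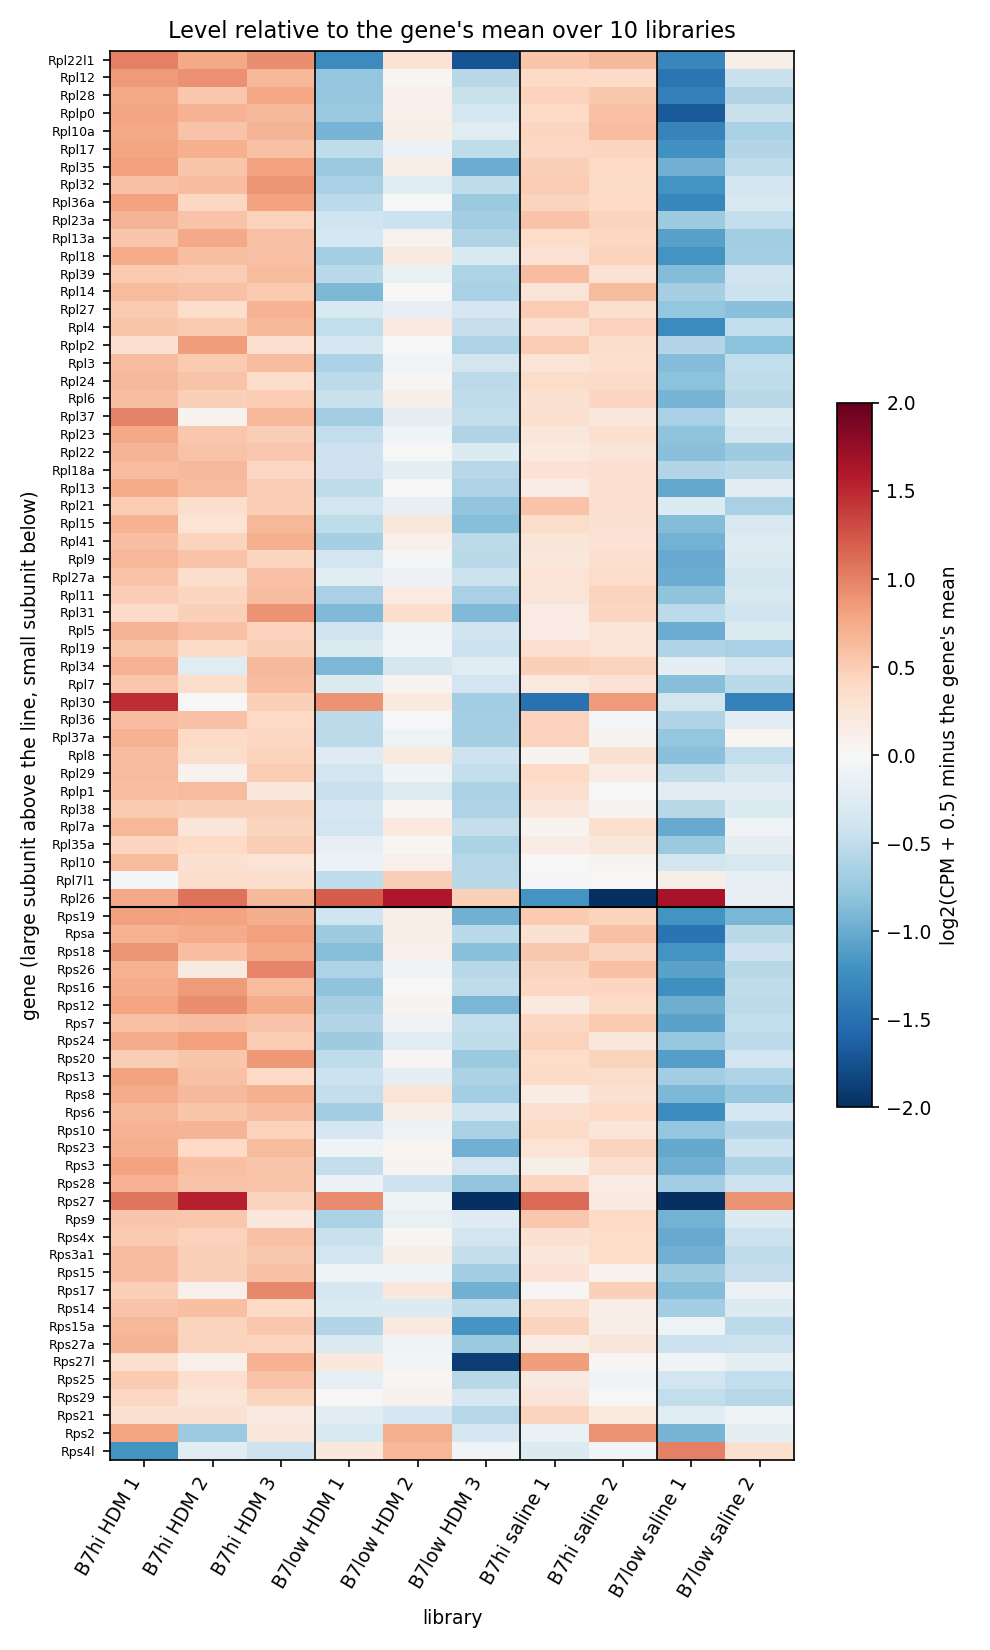
Each cell is log2(CPM + 0.5) of 1 of 79 genes in 1 library minus that gene's mean over the 10 libraries, with large subunit genes above the line and small subunit genes below, each ordered by their mean difference between B7hi and B7low. B7hi columns are mostly red and B7low columns mostly blue, B7low HDM 2 is near the mean for many genes, and Rps27, Rpl26 and Rpl30 scatter within groups.

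A few genes stood apart from the rest. Rpl26, which sits by the exit tunnel, had 14.4 and 0 CPM in the saline-treated B7hi libraries, against 107 and 30.1 CPM in the B7low ones. Its level in the HDM libraries was 57.5, 72.4 and 53.4 CPM in B7hi, against 78.6, 105 and 47.4 CPM in B7low. The saline libraries did not overlap and the HDM libraries did. B7hi was lower with saline by estimate, at a log2 fold change of -3.38 ± 1.06 that did not pass (edgeR adjusted p = 0.098), but was called lower under 4 of 21 alternatives, limma-voom among them (adjusted p 0.002 to 0.35). The absence in B7hi saline 2 is a count of 0, which allows up to 1.74 CPM by library size without TMM scaling. Rps4l had 3.75, 7.83 and 6.85 CPM in B7hi HDM, against 10.8, 15 and 8.85 CPM in B7low HDM, with all B7low libraries above the B7hi ones. That order rests on few reads, with counts of 6, 4 and 10 in B7hi HDM and 8, 23 and 14 in B7low HDM. The log2 fold change of Rps4l was -0.96 ± 0.62 (edgeR adjusted p = 0.56). The annotation lists Rps4l as a transcribed processed pseudogene, while its relative Rps4x, the X-linked small subunit gene, stood at 0.78 with HDM and 1.02 with saline and was called with saline (edgeR adjusted p = 0.04), a call lost under 10 of 21 alternatives.

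The paralogues Rpl7l1, Rpl22l1 and Rps27l passed no test with TMM scaling over all libraries. Rpl7l1, a relative of Rpl7 that acts in ribosome assembly, had 64.2 and 65.3 CPM in B7hi cells with saline, against 71.7 and 58.5 CPM in B7low cells, and overlapping values with HDM. Rpl22l1 had 28.1, 23.5 and 26.7 CPM in B7hi HDM, against 5.42, 16.9 and 3.79 CPM in B7low HDM. Its counts were 45, 12 and 39 in B7hi HDM and 4, 26 and 6 in B7low HDM. The CPM did not overlap, the log2 fold change of Rpl22l1 was 1.54 ± 0.56 (edgeR adjusted p = 0.19), and 1 of 21 alternatives called it (adjusted p = 0.044). Its paralogue Rpl22 was called with saline (1.00 ± 0.28, edgeR adjusted p = 0.044), a call lost under 15 of 21 alternatives, and stood at 0.82 with HDM (edgeR adjusted p = 0.057), where 2 alternatives called it. Rps27l, a p53-induced paralogue of Rps27, stood at 0.78 and 0.61, and Rps27 itself ranged from 8.21 to 245 CPM with overlapping groups. Rps2 stood at 0.12 ± 0.41 with HDM (edgeR adjusted p = 0.93), with B7hi HDM 2 at 155 CPM below all 3 B7low HDM libraries of 207, 420 and 203 CPM.

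Genes of both subunits were higher in B7hi. With HDM, 12 of 48 large and 16 of 33 small subunit genes were called higher, with median log2 fold changes of 0.89 and 0.94. With saline, 19 of 48 and 16 of 33 were called, with medians of 0.93 and 1.01. Over all counts, the ratio of large to small subunit counts was 1.36, 1.32 and 1.33 in B7hi HDM, against 1.42, 1.36 and 1.42 in B7low HDM. With saline it was 1.35 and 1.33 in B7hi, against 1.53 and 1.43 in B7low. The ratio was lower in B7hi by a small margin, and the lowest B7low library, HDM 2, met the highest B7hi library, HDM 1, at 1.36. The ratio weighs genes by their counts, and the 10 genes with the most counts hold 35.8% of all counts of the 81. Without Rpl10, the large subunit gene highest per length, it ran from 1.24 to 1.27 in B7hi and from 1.26 to 1.39 in B7low. Differences between the subunits were not tested, since genes are not replicates.

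HDM did not move these genes past the threshold in either population. In B7hi, 0 of 81 were called by edgeR, DESeq2 or limma-voom, where these tools called 0.00949%, 0.513% and 0.0854% of all tested genes, and 1 had an unadjusted p under 0.05 by edgeR, where 4.13% of all tested genes did. The median log2 fold change of HDM over saline was 0.26, against 0.02 over all tested genes, and 47 genes had all B7hi HDM libraries above both B7hi saline libraries, where 10.2% of all tested genes did so. In B7low, 0 of 81 were called by the same tools, where they called 0.00949%, 0.18% and 0% of all tested genes, and 7 had an unadjusted p under 0.05 by edgeR, where 9.08% of all tested genes did. The median there was 0.29, against 0.03 over all tested genes. It was 0.15 and 0.60 without B7low saline 1 or 2, where all tested genes stood at 0.11 and 0.13. Without B7low HDM 2 it was 0.09, and the median of all tested genes in that fit is not given here. For 14 genes the B7low HDM libraries lay above both B7low saline libraries, where 13.2% of all tested genes did so. The summed share of raw counts, Rn45s included, was 1.06 times as high with HDM as with saline in B7hi and 1.40 times in B7low. Without Rn45s the mean share was 6.83% with HDM and 6.13% with saline in B7hi, and 3.73% and 2.85% in B7low.

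Rpl26 gave the smallest p for HDM in B7hi, at 57.5, 72.4 and 53.4 CPM with HDM, against 14.4 and 0 CPM with saline (log2 fold change 3.20 ± 1.00, edgeR adjusted p = 0.87). It was called without B7hi saline 1, which leaves the library at 0 alone in its group, and no other library left out gave a call. Rps12, Rps3 and Rps25 followed, at log2 fold changes of 0.54, 0.44 and 0.42. In B7low, Rps19 had 186, 266 and 125 CPM with HDM, against 107 and 130 CPM with saline (0.70 ± 0.30, edgeR adjusted p = 0.51). Those libraries overlapped, and Rpl18 and Rpl13a stood at 0.69 and 0.61. The interaction (the log2 effect of HDM in B7hi less its effect in B7low) was called for 0 of 81 by edgeR, where edgeR called 0 of all 10533 genes, for 0 by DESeq2, which called 0.389% of all tested genes, and for 0 by limma-voom, which called 0%. Its median was -0.04, and 2 genes had an unadjusted p under 0.05 by edgeR, where 8.55% of all tested genes did.

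The number of genes called depended on how the libraries were scaled. A scaling shifts all genes of a contrast about alike, so the gap between the median of the 81 and that of all genes stays near its value by construction. TMM factors, which correct for the transcripts that fill a library, ran from 0.882 in B7low saline 1 to 1.12 in B7hi saline 2. With library size alone, 58 genes were called higher with saline, where 6.22% of all tested genes were called higher and 2.94% lower, against 2.91% and 3.64% with TMM. The 58 hold all 35 of the genes called with TMM. That scaling moved the median of all genes with saline to 0.30, and the median of the 81 to 1.25, a gap of 0.95, against 0.96 with TMM. With DESeq2 size factors 20 genes were called with saline, where 2.28% of all tested genes were called higher. With HDM the factors were closer together, and library size alone called 24 genes, where 0.532% of all tested genes were called higher. All 24 were among the 28. TMM factors computed without the 81 genes gave 25 higher calls with HDM and 31 with saline, where 0.589% and 2.87% of all tested genes were called higher. For HDM against saline, library size alone placed the median of the 81 at 0.10 in B7hi, where all genes stood at -0.14, and at 0.42 in B7low, where all genes stood at 0.17.

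**Figure D4:**
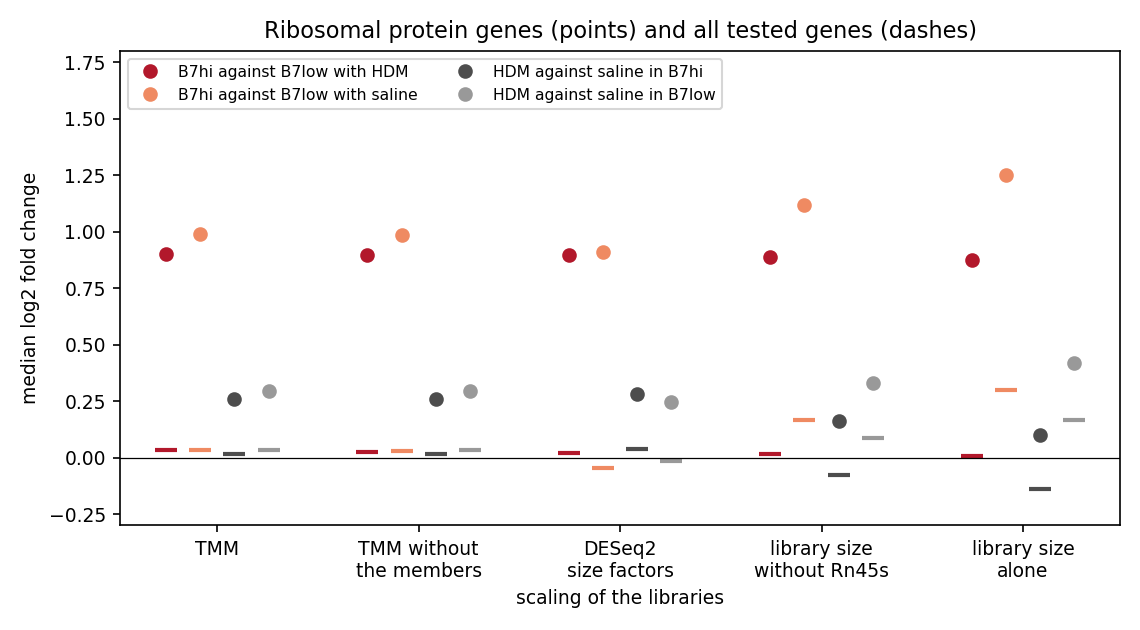
The median log2 fold change of the 81 ribosomal protein genes (points) and of all tested genes (dashes) under 5 scalings of the libraries, in 4 contrasts. Points and dashes of a contrast shift together, as a scaling moves all genes about alike, and with saline the points run up to 1.25 with library size alone.

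Levels of the genes differed widely, although most proteins are present at 1 copy per ribosome. Per kilobase of the principal annotated transcript, the mean level over all libraries was 1828 CPM for Rpl10, 1801 for Rps4x, 1523 for Rplp1, 1417 for Rps14, 1267 for Rpl19 and 1206 for Rps6. The lowest were Rpl37 at 28.7, Rpl30 at 29.2, Rpl22l1 at 30.2 and Rpl7l1 at 51.6, and the median was 437. These levels and their order rest on the transcript chosen for each gene. The chosen lengths had a median of 705 nt and reached 2045 nt for Rpl5 and 3706 nt for Rps20, which stood at 66.8 CPM per kilobase. The order of the group means at the top turned between the populations. Rps4x stood above Rpl10 in B7hi HDM (2448 against 2369) and B7hi saline (2140 against 1809). Rpl10 stood above Rps4x in B7low HDM (1582 against 1426) and B7low saline (1401 against 1052). Single libraries did not all follow, as Rpl10 stood above Rps4x per kilobase in B7hi HDM 1 and below it in B7low HDM 3. Rps4l has no length in this annotation and is left out. Reads were 25 nt long, and how those with several matches were counted is not given in the sources used here, so levels of genes with close copies are uncertain. For 80 genes, a median of 68.3% of the 25-nt words in the transcript also occur in another annotated transcript. Level per kilobase and shared words had a Spearman rho of 0.22 over the 80 genes of the same libraries.

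The difference between the populations did not follow shared sequence. The 18 genes with at most 50% shared words had median log2 fold changes of 0.93 with HDM and 0.98 with saline, and the 9 with over 90% had 1.08 and 0.99. Spearman's rho of shared words with the log2 fold change was 0.03 with HDM and -0.04 with saline. Short transcripts in general stood above long ones: 593 other tested genes with transcripts under 1000 nt had a median of 0.28 with HDM and 0.32 with saline, while 9117 longer ones had 0.00 and 0.03. At a mean of at least 50 CPM, 172 such short genes had medians of 0.28 and 0.37, with 2.33% and 8.72% called higher. The 2760 longer ones at that level had 0.08 and 0.16, with 1.01% and 4.93% called higher. The part of transcript length in the results on ribosomal protein genes was not tested. Among the 80 themselves, length and log2 fold change had a Spearman rho of 0.02 with HDM and 0.33 with saline.

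**Figure D5:**
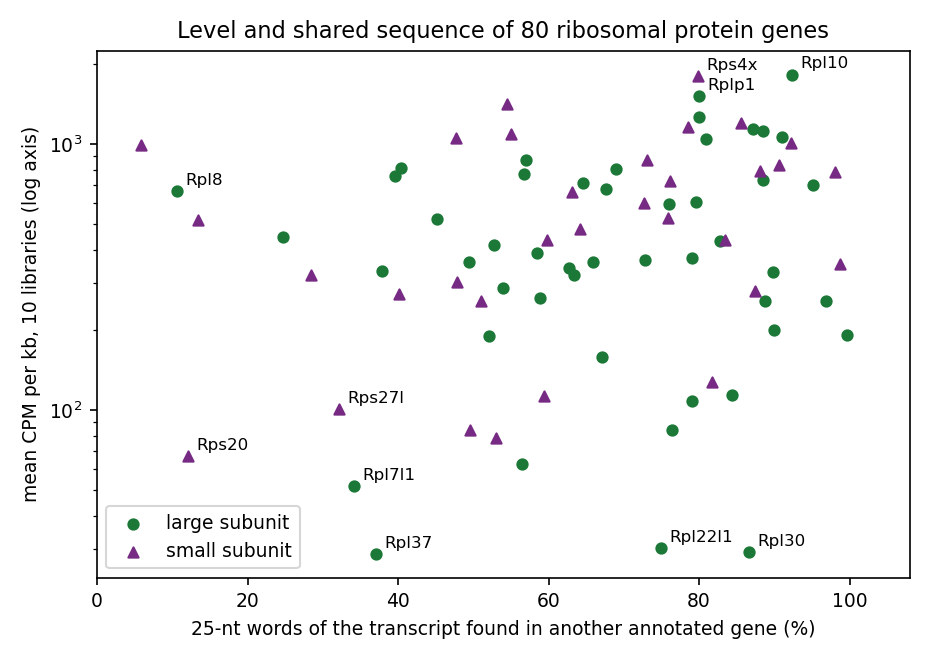
Each point is 1 of 80 ribosomal protein genes, with the percent of its 25-nt words found in another annotated gene on the x axis and its mean CPM per kilobase over the 10 libraries on a log y axis. Rpl30 and Rpl22l1 lie low among genes with many shared words, while Rpl8 lies high with few.

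Genes that work with the ribosome were compared by lists. Of 20 tested transcripts outside the 81 that are known for a TOP start, 5 were higher in B7hi with HDM and 4 with saline, with none lower and medians of 0.80 and 0.76, where 0.693% and 2.91% of all tested genes were called higher. Gnb2l1, the older symbol of the ribosomal scaffold Rack1, averaged 1415 CPM in B7hi HDM and 732 CPM in B7low HDM (0.95 ± 0.24, edgeR adjusted p = 0.045). With saline it averaged 1265 CPM in B7hi and 422 CPM in B7low (1.58 ± 0.31, edgeR adjusted p = 0.0045). Eef2, the translocation factor, was called under both challenges at 0.90 and 1.09, Npm1, a nucleolar chaperone, with HDM at 1.07, and Pabpc1, the poly(A) binding protein, with saline at 1.35. Rps27a, which encodes a ribosomal protein fused to ubiquitin, was called with HDM (0.87), a call lost under 12 of 21 alternatives, and Fau, which encodes one fused to a ubiquitin-like protein, was called in neither contrast (0.52 and 0.54).

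Lists of genes that build or regulate ribosomes held at most 3 calls each in a contrast. Of 61 ribosome biogenesis genes, 2 (3.28%) were higher with HDM and 3 (4.92%) with saline, where 0.693% and 2.91% of all tested genes were, with medians of 0.37 and 0.32. None of 15 RNA polymerase I genes, 20 RNA polymerase III genes or 24 genes of mTORC1, MYC and LARP control was called by edgeR or limma-voom in either contrast, DESeq2 called 1 gene of the last list with saline, and 1, 1 and 2 of them had an unadjusted p under 0.05 with HDM and 3, 0 and 2 with saline, where 13.6% and 21.2% of all tested genes did. Myc averaged 22.9 CPM in B7hi HDM and 32.0 CPM in B7low HDM, and Larp1 averaged 26.7 CPM in B7hi HDM and 19.5 CPM in B7low HDM. Of 39 initiation factors, Eif3e was higher with HDM (0.86), Eif3h and Eif3m were higher with saline (1.12 and 1.54), and Eif4a2 was lower with saline (-1.03). Of 77 mitochondrial ribosomal protein genes, whose products form the separate ribosome of mitochondria, 0 were called by edgeR, DESeq2 or limma-voom in either contrast, with medians of 0.36 and 0.35 and an unadjusted p under 0.05 for 6 with HDM and 3 with saline, where 13.6% and 21.2% of all tested genes did. Of 68 nuclear genes for subunits of oxidative phosphorylation, 0 were called with HDM by any of the 3 tools, where 12 had an unadjusted p under 0.05 by edgeR, and edgeR called 2 with saline, Ndufa10 and Ndufb5, with medians of 0.47 and 0.42. Of 22 cytosolic tRNA synthetases, 0 were called with HDM by the 3 tools, with 0 at an unadjusted p under 0.05 by edgeR, and edgeR called Vars (1.87) and Qars (1.26) with saline. Of 8 nuclear noncoding RNAs, Neat1 was lower in B7hi with HDM (-0.94) and Malat1 with saline (-1.05), where 2.15% and 3.64% of all tested genes were called lower. Differences between the lists were not tested.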

How the data were processed

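Airway mast cells were sorted into lysis buffer, amplified by SmartSeq2 and sequenced in pairs of 25 nt, per the labels' protocols. The deposited table holds raw counts per gene symbol. Per the submitters' processing notes, the tools were TopHat2 2.0.10 and Cufflinks 2.2.1, with DESeq2, and the build was mm10; which tool counted reads, by which strand setting and with what rule for several matches was not given in the sources used here. Counts of overlapping, antisense or near-identical genes may therefore be mixed.

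A robust quasi-likelihood model was fitted in edgeR 4.0.16 (R 4.3.3) to TMM-scaled counts, with 1 mean per group over all 10 libraries and filterByExpr, leaving 10533 genes. Tests were two-sided with Benjamini-Hochberg adjustment over these genes. SEs are approximate (size of the log2 fold change divided by the root of F), and the scripts were tested on simulated data. CPM uses TMM-scaled library sizes, save for shares, which are of raw counts. Transcript lengths, coordinates and shared 25-nt words come from GENCODE M21. Within groups, library pairs differed by 6.54 to 11.0 in chi-square per degree of freedom, more than counting noise, which does not tell separate samples from repeat amplifications where PCR copies are not collapsed. Alternatives used DESeq2 1.42.0, limma-voom 3.58.1, other scalings and filters, and left-out libraries.

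Named genes are the 6 per subunit with the smallest p among calls and the 3 lowest fold changes per population contrast, up to 4 with the smallest p in the other contrasts, the 6 highest and 4 lowest levels per kilobase, the paralogues, stalk proteins, Rpsa and Rps27a, and up to 3 per further list with Fau, Gnb2l1, Myc and Larp1. A few genes under this rule are not reported here. Rpl5, Rpl11 and the genes named for their spread within groups were chosen after their values were seen, as were the groupings by role. The members and all lists were chosen with earlier results of these data known.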

Additional observations from a re-analysis of the deposited data

How the results depend on the processing

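No call turned its direction under any alternative. With saline, 35 ribosomal protein genes were called; 58 were called with library size alone (median log2 fold change 1.25), 20 with DESeq2 size factors, 18 without both B7low saline 2 and B7hi HDM 2, 2 when only the 2 groups compared were fitted, and 2 to 33 with 1 library left out. With HDM, 28 were called; 56 were called by DESeq2, 48 by limma-voom, 8 without those 2 libraries, and 1 to 43 with 1 library left out. For HDM against saline in B7hi, 0 to 1 were called with 1 library left out. For HDM against saline in B7low, the median of 0.29 became 0.59 without those 2 libraries and 0.09 to 0.60 with 1 left out. The interaction median of -0.04 became -0.33 with library size alone, where all genes stood at -0.33, and -0.32 to 0.21 with 1 library left out. Without Rn45s, the mean shares were 6.83%, 3.73%, 6.13% and 2.85% in B7hi HDM, B7low HDM, B7hi saline and B7low saline. A library left alone in its group was assumed to vary like the others. The cause of these changes was not tested, other than fewer libraries in the fits that leave some out. For those fits the share of all tested genes called is not given, so their counts have no background. Same-numbered libraries did not deviate together (r of 0.02, -0.09 and -0.05 with HDM, 0.04 with saline). With the replicate block, 33 genes were called with HDM, and 34 higher and 1 lower with saline. The share of all tested genes called is not given for that fit either, so these counts have no background. Among single genes named, 158 comparisons under an alternative lost their call, 19 gained one and 1163 kept their side. Depth limits the lowest genes: a count of 0 allows up to 5.70 CPM in the shallowest library, by library size without TMM scaling.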

Other observations

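Spread within groups set some genes apart from the other ribosomal protein genes. The SD of log2(CPM + 0.5) within groups, pooled over the 4 groups, had a median of 0.28 over the 81 genes, 0.27 for the large and 0.29 for the small subunit. It was 1.73 for Rps27, 1.55 for Rpl26, 0.97 for Rpl30, 0.74 for Rpl22l1, 0.72 for Rps27l and 0.67 for Rps2. In that order, these genes had 1340, 599, 216, 213, 598 and 3789 counts over all libraries. The part of counting noise in their spread was not tested. Rps27 had 174, 245 and 113 CPM in B7hi HDM, against 160, 78.7 and 8.21 CPM in B7low HDM, and with saline 181 and 94.5 CPM in B7hi, against 10.5 and 154 CPM in B7low. Of its 25-nt words, 98.8% occur in another annotated gene. This share was 79.1% for Rpl26, 86.6% for Rpl30, 75.0% for Rpl22l1, 32.2% for Rps27l and 87.4% for Rps2. Rpl35 and Rps10, nearest to Rps27 at 99.7% and 98.1%, had SDs of 0.37 and 0.19. The part of shared sequence in the spread was not tested.

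Of 7 symbols that carry the name of a ribosomal protein pseudogene, 1, Rpl34-ps1, passed the filter on low counts. It averaged 240 CPM in B7hi HDM and 109 CPM in B7low HDM (log2 fold change 1.14 ± 0.27, edgeR adjusted p = 0.030), and 184 CPM in B7hi saline and 130 CPM in B7low saline. Reads of Rpl34 and this pseudogene may be mixed.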
